A study of Mus musculus with 8 samples.

Results

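The genes described here carry and report bone morphogenetic protein (BMP) signalling. They were chosen by symbol from a table of 55421 genes and are 10 in number. Expression was measured in cultures of mouse spermatogonia on feeder cells, and which cells gave each transcript was not tested. Bmp2 and Bmp4 encode ligands, Grem1 encodes a secreted antagonist, and Bmpr1a and Bmpr1b encode type I receptors. Smad6 and Smad7 encode inhibitory SMADs, and Id1, Id2 and Id3 encode target proteins. Each of the 10 symbols matched a single row, and all 10, each annotated as protein coding, passed the filter on low counts that left 20588 genes for testing. Counts are over the exons of a gene, and gene positions below are in GRCm38.

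The study asked whether nutrient restriction together with retinoic acid (RA), a combination called NRRA, starts meiosis in culture. Expression was measured by strand-selected poly(A) RNA-seq in 8 libraries from primary spermatogonial stem cell (SSC) cultures, 2 for each of 4 groups. The groups were Stra8KO Veh, Stra8KO NRRA, Spo11KO Veh and Spo11KO NRRA, where Veh is vehicle and NRRA was given for 2 days as SSC medium diluted with a balanced salt solution plus RA. The cultures were started from 6-day-old pups that lacked Stra8, a gene induced by RA at the start of meiosis, or Spo11, whose product makes meiotic DNA breaks. The mice were on a C57BL/6 X DBA/2 F1 background. All groups shared a layer of mitotically arrested embryonic fibroblasts from CF1 mice as feeder cells. The SSC medium held GDNF, bFGF and serum, and its dilution in NRRA lowered these too. That dilution is part of every comparison of NRRA with Veh. Every library is therefore from a mutant, and wild-type cultures were not analysed here.

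BMP ligands bind pairs of type I and type II receptor kinases, which phosphorylate SMAD1, SMAD5 and SMAD9. These join SMAD4 and enter the nucleus, where they induce Id genes and also Smad6 and Smad7, whose products dampen the same pathway, while Gremlin 1 binds BMP2 and BMP4 outside the cell and keeps them from the receptors. In the testis, BMP4 is known as a signal that favours spermatogonial differentiation, and ID4 marks the least differentiated spermatogonia.

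Libraries held 20960794 to 27038868 counts, and Spearman correlations within a group were 0.994 to 0.995 across genes. Levels are CPM, a gene's counts scaled to a library of 1e+06 counts, taken after TMM scaling, which corrects for library composition. Differences are log2 fold changes with their standard error (SE). Each was tested by quasi-likelihood in edgeR, adjusted over all tested genes by the Benjamini-Hochberg method, and called where the adjusted p lay under 0.05. Stra8 reached 8.16 and 7.85 CPM in Stra8KO NRRA against 486 and 552 CPM in Spo11KO NRRA. Spo11 was not lower in the libraries labelled for its loss (4.33 to 5.71 CPM in Spo11KO NRRA, 3.05 to 3.28 CPM in Stra8KO NRRA), so these counts did not check that label and its cultures are called labelled Spo11KO. The study describes the replicates of its sequencing as independent and biological, although which mice or cultures gave each library is not stated in the labels.

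Fibroblast markers, which need not come from the feeder layer alone, were high as a set. The 16 fibroblast markers together held 2.38% and 2.44% of counts in Stra8KO Veh and 3.86% and 3.82% in Stra8KO NRRA. They held 1.37% and 1.36% in the Veh libraries labelled Spo11KO and 2.33% and 2.23% in the NRRA libraries labelled Spo11KO. Of these 16, S100a4, by which the study recognised fibroblasts among single cells, averaged 7.93 CPM in Stra8KO Veh and 1.74 CPM in Stra8KO NRRA. S100a4 averaged 2.7 CPM in Spo11KO Veh and 0.862 CPM in Spo11KO NRRA. The 8 germ cell markers, among them Ddx4 and Dazl, held 0.0629% to 0.0731% in Stra8KO and 0.141% to 0.176% in the Spo11KO-labelled cultures. No marker of either list was at 0 in any library. The 6 Sertoli cell markers together held 0.00168% to 0.0043% of counts, and 4 of them, Amh, Gata4, Cldn11 and Rhox5, averaged under 1 CPM in every group. The others were Sox9, which averaged 37.9 CPM under Veh and 15.5 CPM under NRRA in Stra8KO and 30.1 and 10.3 CPM in the cultures labelled Spo11KO, and Wt1, at 12.0 CPM in Stra8KO NRRA and 3.83 to 4.08 CPM in the other groups. The 5 Leydig cell markers held at most 0.000846%, with Star at 5.35 to 6.6 CPM and the other 4, Insl3 among them, under 1 CPM in every group. Macrophage markers together held at most 0.0059% of counts and endothelial markers at most 0.00124%. In such mixed cultures, fewer cells of a type and less RNA per cell cannot be told apart.

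**Figure D1:**
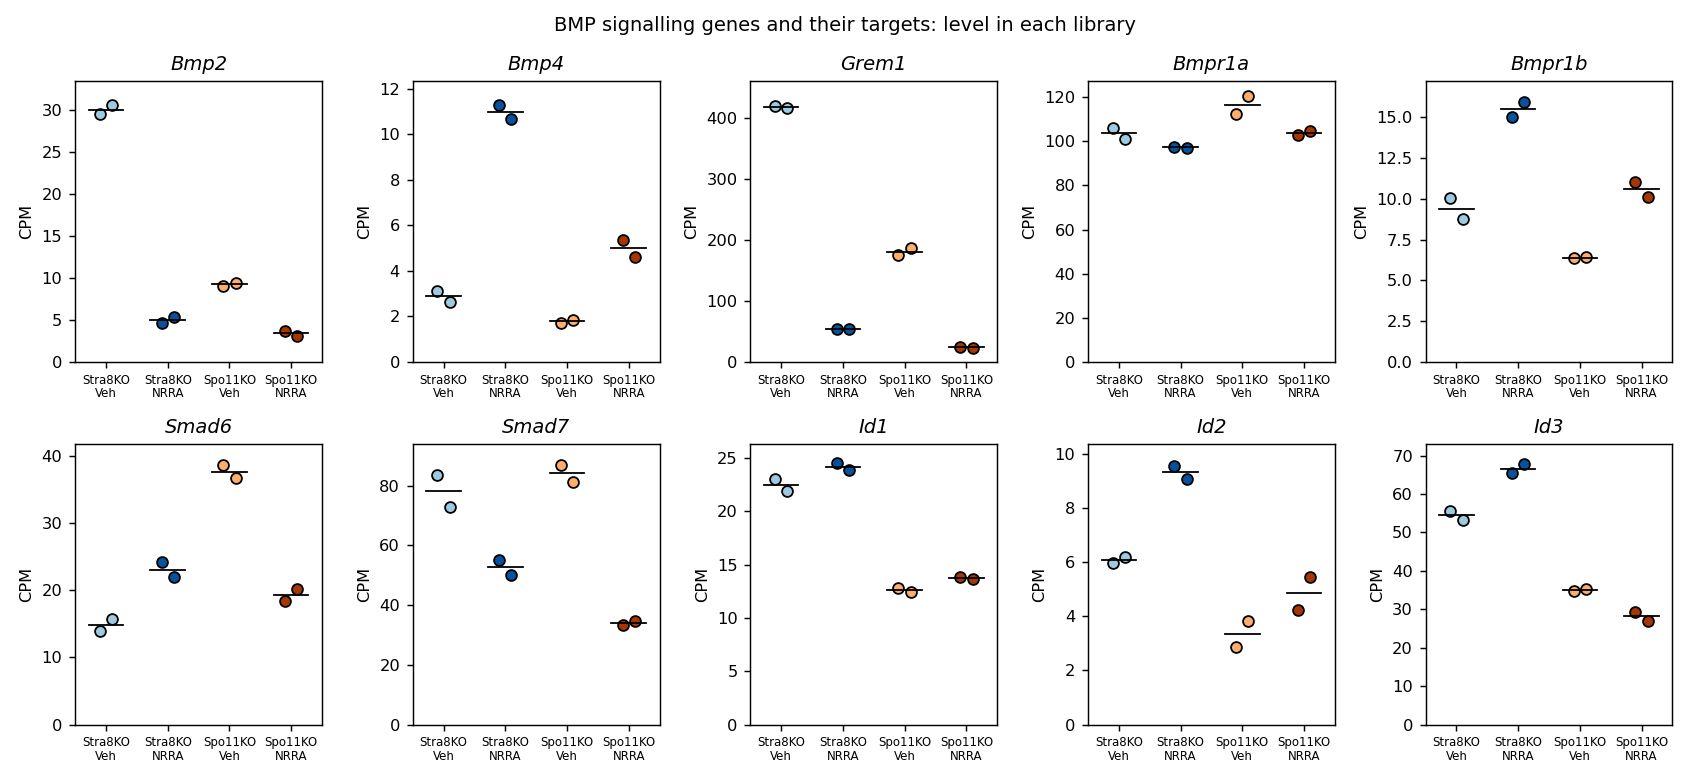
Level of each BMP gene (CPM, linear axis from 0) in the 8 libraries. Points are libraries, horizontal lines are the means of the 2 libraries of a group, and blue and brown mark Stra8KO and labelled Spo11KO. Grem1 stood at 416 to 419 CPM in Stra8KO Veh and at 23.5 to 24.8 CPM in Spo11KO NRRA, and Smad6 was lowest in Stra8KO Veh and highest in Spo11KO Veh.

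NRRA lowered Grem1 and Bmp2 and raised Bmp4 in both genotypes. In Stra8KO, 8 of the 10 genes were called (5 higher, 3 lower), beside 41.5% of all tested genes (21.4% higher, 20.1% lower). In the Spo11KO-labelled cultures, 9 were called (3 higher, 6 lower), beside 50.3% of all tested genes (24.7% higher, 25.5% lower). The NRRA and Veh libraries did not overlap for any of the 10 genes in either genotype, beside 69.4% of all tested genes in Stra8KO and 71.9% in the Spo11KO-labelled cultures. The median log2 change of the 10 genes was 0.20 in Stra8KO and -0.24 in the Spo11KO-labelled cultures, against 0.01 over all tested genes in each. The comparisons between media and those between genotypes use the same 8 libraries, so they are not independent of each other.

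Bmp2 (ENSMUSG00000027358, chromosome 2, 133552159 to 133562885, plus strand), a secreted ligand, stood at 29.6 and 30.6 CPM in Stra8KO Veh and at 4.63 and 5.35 CPM in Stra8KO NRRA. In the Spo11KO-labelled cultures it went from 9.05 and 9.44 CPM in Veh to 3.67 and 3.14 CPM in NRRA. All NRRA libraries thus lay below all Veh libraries. The fall was 6.0-fold in Stra8KO (log2 -2.59, SE 0.112, adjusted p 1.08e-22) and 2.73-fold in the Spo11KO-labelled cultures (log2 -1.45, SE 0.141, adjusted p 1.35e-11). It was larger in Stra8KO by 1.14 log2 units, as the interaction was -1.14 (SE 0.195, adjusted p 1.41e-05). The interaction subtracts the effect of NRRA in the Spo11KO-labelled cultures from the effect in Stra8KO.

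Bmp4 (ENSMUSG00000021835, chromosome 14, 46383520 to 46390669, minus strand), the ligand known as a signal that favours spermatogonial differentiation, moved the other way. Its level was 3.13 and 2.62 CPM in Stra8KO Veh and 11.3 and 10.7 CPM after NRRA. With the Spo11KO label it was 1.73 and 1.83 CPM in Veh and 5.36 and 4.61 CPM after NRRA. Every NRRA library was above every Veh library, and the rise was 3.79-fold in Stra8KO (log2 1.92, SE 0.16, adjusted p 1.74e-13) and 2.79-fold in the other genotype (log2 1.48, SE 0.198, adjusted p 3.23e-08). A difference between the rises was not detected (interaction 0.44, 95% interval -0.12 to 1.00, adjusted p 0.273). Exons of Bmp4 share 89 bases with Gm15217 on the opposite strand, and the strand setting of the counting is not given in the sources used here, so reads of these bases cannot be assigned for certain.

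Levels of different genes were compared only after division by exon length, as CPM per kb. On that scale the ratio of Bmp4 to Bmp2 was 0.167 and 0.135 in Stra8KO Veh and 3.85 and 3.15 in Stra8KO NRRA. With the Spo11KO label it was 0.302 and 0.306 in Veh and 2.31 and 2.32 in NRRA. Bmp2 was thus the more abundant of these ligand transcripts in all 4 Veh libraries and Bmp4 in all 4 NRRA libraries. Their sum was 9.71 and 9.76 CPM per kb in Stra8KO Veh and lower, at 6.33 and 6.25, in both Stra8KO NRRA libraries. In the Spo11KO-labelled cultures the sum was 3.31 and 3.47 CPM per kb in Veh and 3.42 and 2.93 CPM per kb in NRRA, and these libraries overlapped.

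Grem1 (ENSMUSG00000074934, chromosome 2, 113746164 to 113758646, minus strand), whose product traps BMP ligands, had the largest fall among the 10 genes in both genotypes. It was at 419 and 416 CPM in Stra8KO Veh and at 54.6 and 54.4 CPM in Stra8KO NRRA. It was at 175 and 186 CPM in Spo11KO Veh and at 24.8 and 23.5 CPM in Spo11KO NRRA. The falls were 7.66-fold (log2 -2.94, SE 0.0466, adjusted p 8.97e-38) and 7.49-fold (log2 -2.91, SE 0.0509, adjusted p 2.51e-36). They ranked 66 and 151 from the strongest fall among the 20588 tested genes. No difference between them was detected (interaction -0.03, 95% interval -0.18 to 0.11, adjusted p 0.801).

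The ratio of Grem1 to the sum of Bmp2 and Bmp4, per kb, was 10.4 and 10.3 in Stra8KO Veh and 12.7 and 12.9 in Spo11KO Veh. After NRRA it was 2.08 and 2.1 in Stra8KO and 1.75 and 1.93 in the Spo11KO-labelled cultures. Grem1 transcripts thus exceeded those of this pair of ligands in every library, and by less in every NRRA library than in any Veh library. The ratio leaves out all other ligands and antagonists. Of ligand genes outside the 10, Bmp6 averaged 3.72 CPM per kb in Stra8KO Veh and 14.3 in Stra8KO NRRA. It averaged 5.14 in Spo11KO Veh and 6.42 in Spo11KO NRRA. Bmp7 averaged 3.39, 2.67, 9.28 and 9.85 CPM per kb in the same order. Grem1 lay above each of them in both Veh groups. It lay below Bmp6 in Stra8KO NRRA (13.1) and below both in Spo11KO NRRA (5.82).

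**Figure D2:**
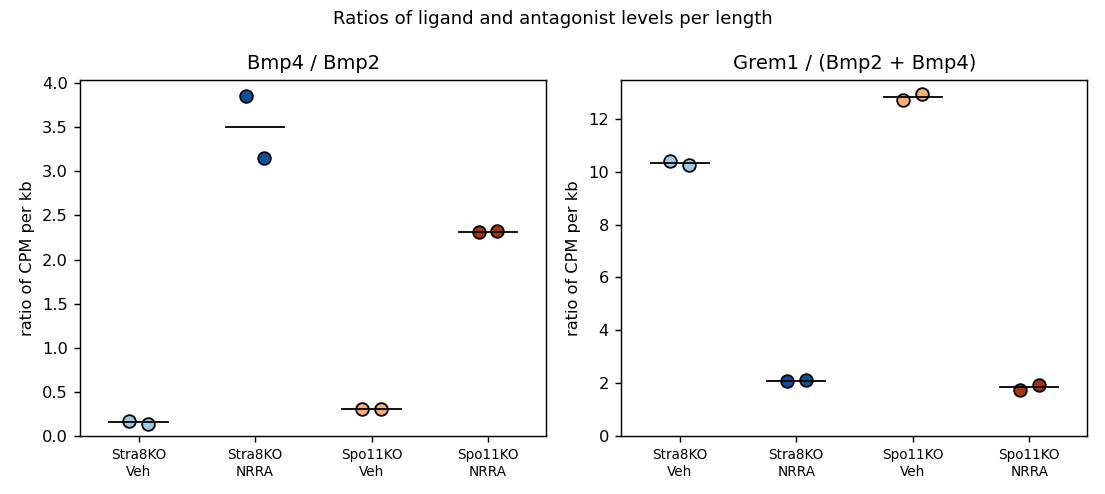
Ratio of Bmp4 to Bmp2 (left) and of Grem1 to the sum of Bmp2 and Bmp4 (right), computed from CPM per kb of exon, in the 8 libraries. Points are libraries and lines are group means on linear axes from 0, and the left ratio lies below 1 in Veh (0.135 to 0.306) and above it in NRRA (2.31 to 3.85).

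The bases just before the start site are shown for 3 genes: Bmp4, which rose most of the 10 under NRRA, Grem1, which fell most, and Smad6, whose direction differed between genotypes. Each window holds the 250 bases upstream of the RefSeq start, 5′ to 3′ on the gene's strand (GRCm38.p6, all on the minus strand): chr14:46390670-46390919 for Bmp4, chr2:113758649-113758898 for Grem1 and chr9:64022060-64022309 for Smad6. Capitals mark, on either strand, GGCGCC (a GC-rich element of SMAD1 and SMAD5), GTCT (the SMAD-binding element, AGAC on the other strand) and AGGTCA (a unit of the repeats bound by RA receptors, TGACCT on the other strand).
Bmp4: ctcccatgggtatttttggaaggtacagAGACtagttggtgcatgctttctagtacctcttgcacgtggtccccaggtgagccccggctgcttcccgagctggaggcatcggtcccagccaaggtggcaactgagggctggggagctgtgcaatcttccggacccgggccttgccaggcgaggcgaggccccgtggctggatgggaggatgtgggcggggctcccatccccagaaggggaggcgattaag
Grem1: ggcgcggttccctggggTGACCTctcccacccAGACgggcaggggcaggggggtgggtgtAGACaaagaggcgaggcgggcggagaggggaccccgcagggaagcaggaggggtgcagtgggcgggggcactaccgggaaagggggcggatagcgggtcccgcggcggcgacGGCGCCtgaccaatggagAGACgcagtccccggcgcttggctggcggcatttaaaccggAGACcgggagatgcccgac
Smad6: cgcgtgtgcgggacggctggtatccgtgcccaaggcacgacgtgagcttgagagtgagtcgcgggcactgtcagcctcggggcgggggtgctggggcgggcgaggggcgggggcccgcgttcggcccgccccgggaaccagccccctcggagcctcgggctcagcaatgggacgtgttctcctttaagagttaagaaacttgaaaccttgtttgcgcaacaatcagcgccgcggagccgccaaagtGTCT
Grem1 holds all 3 motifs, with 1 GGCGCC starting 78 bases before the start, 1 AGGTCA 233 bases before it and 4 GTCT. The windows of Bmp4 and Smad6 hold 1 GTCT each and neither of the others. Among windows of the 10 genes not printed here, GGCGCC also occurred for Bmpr1a and Id2, and AGGTCA in a window of Bmpr1b. Of 32851 mouse promoter windows of this length, 9.59% hold GGCGCC, 82.9% GTCT and 14% AGGTCA. The share that holds all 3 was not counted. No sites overlapped in the printed windows, and a match is a description of letters, not of binding.

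Of the receptors, Bmpr1a changed little and Bmpr1b rose. Bmpr1a (ENSMUSG00000021796, chromosome 14, 34410734 to 34503341, minus strand), a type I receptor for BMP2 and BMP4, was at 106 and 101 CPM in Stra8KO Veh and 97.5 and 97.1 CPM in Stra8KO NRRA. In the Spo11KO-labelled cultures it was at 112 and 120 CPM in Veh and 103 and 105 CPM in NRRA. The NRRA libraries were lower without overlap, yet the fall passed the test in the Spo11KO-labelled cultures (log2 -0.17, SE 0.0468, adjusted p 0.0029) and missed it in Stra8KO (log2 -0.09, 95% interval -0.19 to 0.01, adjusted p 0.136). The called fall was lost without Spo11KO Veh replicate 2 (log2 -0.05), Spo11KO NRRA replicate 1 (-0.08) or Spo11KO NRRA replicate 2 (-0.12), and with total counts (-0.07) or no filter (-0.12). Without each of these libraries in turn, the median log2 change of all tested genes shifted too, by 0.068, 0.061 and 0.056. With total counts it shifted by 0.092. The Bmpr1a interaction of 0.07 was not called. Exons of Bmpr1a share 290 bases with Gm17110, an antisense gene.

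Bmpr1b (ENSMUSG00000052430, chromosome 3, 141837136 to 142169425, minus strand) encodes another type I receptor. It stood at 10.1 and 8.76 CPM in Stra8KO Veh and at 15.0 and 16.0 CPM in Stra8KO NRRA. It stood at 6.36 and 6.44 CPM in Spo11KO Veh and at 11 and 10.1 CPM in Spo11KO NRRA. The rise was 1.64-fold (log2 0.71, SE 0.112, adjusted p 9.96e-07) and 1.65-fold (log2 0.72, SE 0.122, adjusted p 3.13e-06), with no overlap between media. The interaction was -0.01 (95% interval -0.34 to 0.32). Bmpr1a remained the more abundant receptor transcript per kb in all 8 libraries, by 5.71 to 17.6 times.

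**Figure D3:**
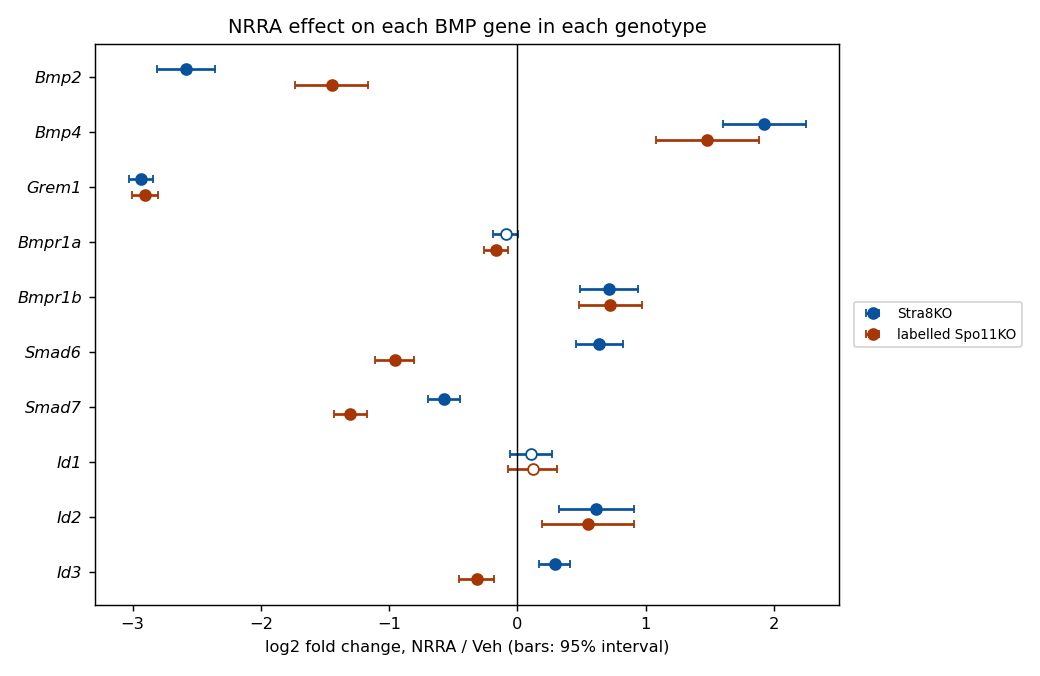
NRRA effect on each BMP gene as the log2 fold change of NRRA over Veh, in Stra8KO (blue) and in Spo11KO-labelled cultures (brown). Points are fitted values, bars are 95% intervals, filled points were called and open points were not. Smad6 and Id3 lie on opposite sides of 0 in the 2 genotypes, and Grem1 lies at -2.94 and -2.91.

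The inhibitory SMADs set the genotypes apart. Smad6 (ENSMUSG00000036867, chromosome 9, 63953076 to 64022059, minus strand), whose product preferentially blocks BMP receptors, was at 14 and 15.7 CPM in Stra8KO Veh and rose to 24.3 and 21.9 CPM in Stra8KO NRRA. Under the Spo11KO label it was at 38.7 and 36.7 CPM in Veh and fell to 18.5 and 20.3 CPM in NRRA. All Veh libraries labelled Spo11KO lay above, and all Stra8KO Veh libraries below, every NRRA library. The rise in Stra8KO was 1.56-fold (log2 0.64, SE 0.0922, adjusted p 2.05e-07) and the fall in the other genotype 1.94-fold (log2 -0.96, SE 0.0762, adjusted p 4.23e-14). The interaction was 1.60 (SE 0.12, adjusted p 3.85e-14), and it ranked 640 from the highest among all tested genes.

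Smad7 (ENSMUSG00000025880), whose product blocks both BMP and TGF-beta receptors, fell in both genotypes. It was at 83.6 and 73.0 CPM in Stra8KO Veh and 55.3 and 50.3 CPM in Stra8KO NRRA. It was at 87.1 and 81.4 CPM in Spo11KO Veh and 33.5 and 34.8 CPM in Spo11KO NRRA. The Veh libraries of the genotypes overlapped, whereas the NRRA libraries did not. The falls were 1.49-fold (log2 -0.57, SE 0.0622, adjusted p 3.08e-10) and 2.47-fold (log2 -1.30, SE 0.0626, adjusted p 5.55e-21), and they differed (interaction 0.73, SE 0.0886, adjusted p 1.53e-08). The ratio of Smad7 to Smad6 per kb was 4.24 and 3.29 in Stra8KO Veh. It lay between 1.22 and 1.63 in the other 6 libraries.

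The Id genes, whose products bind and hold back basic helix-loop-helix factors, did not move as a group. Id1 (ENSMUSG00000042745, chromosome 2, 152736251 to 152737410, plus strand) was at 23.0 and 21.9 CPM in Stra8KO Veh and 24.5 and 23.8 CPM in Stra8KO NRRA. Where labelled Spo11KO, it was at 12.8 and 12.4 CPM in Veh and 13.8 and 13.6 CPM in NRRA. Id1 passed the test of NRRA in neither genotype, with log2 changes of 0.10 (95% interval -0.06 to 0.27, adjusted p 0.327) and 0.12 (-0.07 to 0.31, adjusted p 0.313), although the libraries of the media did not overlap.

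Id2 (ENSMUSG00000020644, chromosome 12, 25093799 to 25097140, minus strand) was at 5.95 and 6.19 CPM in Stra8KO Veh and 9.56 and 9.05 CPM in Stra8KO NRRA. It was at 2.86 and 3.83 CPM in Spo11KO Veh and 4.24 and 5.46 CPM in Spo11KO NRRA. The rise was called in Stra8KO (log2 0.62, SE 0.145, adjusted p 0.00057) and in the Spo11KO-labelled cultures (log2 0.55, SE 0.177, adjusted p 0.009). The latter rested on few counts (68 to 160 per library) and was not called without Veh replicate 1 (log2 0.35) or NRRA replicate 2 (log2 0.40) of those cultures. Without Veh replicate 2 it was 0.84 and without NRRA replicate 1 it was 0.78, both called.

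Id3 (ENSMUSG00000007872, chromosome 4, 136143497 to 136145755, plus strand) was at 55.7 and 53.1 CPM in Stra8KO Veh and 65.4 and 67.7 CPM in Stra8KO NRRA. It was at 34.7 and 35.4 CPM in Spo11KO Veh and 29.4 and 26.9 CPM in Spo11KO NRRA. Like Smad6, Id3 moved in opposite directions, rising by 0.29 (log2, SE 0.0591, adjusted p 8.22e-05) in Stra8KO and changing by -0.32 (log2, SE 0.0667, adjusted p 9.11e-05) in the Spo11KO-labelled cultures. Without NRRA replicate 2 labelled Spo11KO the change was -0.20, still called, while the median of all tested genes shifted by 0.056. The interaction was 0.61 (SE 0.0891, adjusted p 7.77e-07).

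The interaction was called for 4 of the 10 genes, Bmp2, Id3, Smad6 and Smad7, beside 24.7% of all tested genes. These 4 calls were made under all 14 alternative settings tried. Fibroblast markers also moved with NRRA. In Stra8KO, 9 rises and 5 falls were called among 16 (median log2 0.34), beside 41.5% of all tested genes. In the Spo11KO-labelled cultures, 10 rises and 6 falls were called (median 0.17), beside 50.3%. Interactions of the fibroblast markers ran from -0.52 to 0.42, with 7 of 16 called. Those of Bmp2, Id3, Smad6 and Smad7 lay outside this range, but these genes were picked for a called interaction. Interactions of the 8 germ cell markers ran from -0.27 to 3.11, the highest being Nanos3, with a median of -0.11. The part of either cell type in the changes under NRRA was not tested.

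Between genotypes, most BMP genes were higher in Stra8KO. In Veh, 9 of the 10 were called (7 higher in Stra8KO, 2 lower), beside 62.1% of all tested genes (31.5% higher, 30.7% lower). In NRRA, 9 were called, all higher in Stra8KO, beside 64.3% of all tested genes, with 35.2% called higher. The libraries of the genotypes did not overlap for 9 genes in Veh and for all 10 in NRRA, beside 79.7% and 80.8% of all tested genes. The median log2 difference of the 10 genes was 0.67 in Veh and 0.72 in NRRA, against 0.0017 and 0.07 over all tested genes. Scaling by total counts in place of TMM moved the median of all genes by -0.11 in Veh and -0.21 in NRRA.

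The fibroblast markers differed in the same direction. In both media Stra8KO had the higher level of every fibroblast marker, 16 of 16 called. The median was 0.98 in Veh (range 0.45 to 1.55) and 0.96 in NRRA (0.78 to 1.39). Of all tested genes, 62.1% were called in Veh and 64.3% in NRRA. Germ cell markers were lower in Stra8KO, 8 of 8 in Veh (median -1.0) and 7 of 8 in NRRA (median -1.13), where Nanos3 was higher. The part of the mixture of cells in the differences between genotypes was not tested.

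Grem1 was higher in Stra8KO by 1.21 in Veh (log2, SE 0.0412, adjusted p 6.07e-26) and by 1.18 in NRRA (SE 0.0564, adjusted p 2.28e-21). Bmp2 was higher by 1.70 in Veh (SE 0.0961, adjusted p 6.19e-19) and by 0.56 in NRRA (SE 0.166, adjusted p 0.0032). The latter value was not called with total counts (0.35), without Stra8KO NRRA replicate 2 (0.45) or without Spo11KO NRRA replicate 2 (0.39). Bmp4 was higher by 0.70 in Veh (SE 0.237, adjusted p 0.00995) and by 1.14 in NRRA (SE 0.133, adjusted p 6.4e-10). In Veh, where Bmp4 had 41 to 70 counts per library, its difference was not called without Stra8KO replicate 1 (0.56) or Spo11KO replicate 1 (0.66).

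Bmpr1b was higher in Stra8KO by 0.56 in Veh and 0.55 in NRRA (SE 0.131 and 0.103). Bmpr1a had negative values, at -0.17 in Veh (SE 0.0477, adjusted p 0.00246) and -0.09 in NRRA (95% interval -0.19 to 0.00, adjusted p 0.0867). The Veh value was not called without Stra8KO Veh replicate 2 (-0.14) or Spo11KO Veh replicate 2 (-0.10). The NRRA value was called under 7 of 15 alternatives. It was -0.11 with size factors, -0.30 with total counts, -0.15 without the filter and -0.17 with the 4 NRRA libraries only. It was -0.15, -0.17 and -0.13 without Spo11KO Veh replicate 2, Spo11KO NRRA replicate 1 and Spo11KO NRRA replicate 2. Without each of these libraries the median of all tested genes also shifted, by -0.061, -0.056 and -0.061, and with total counts by -0.21.

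Smad6 was 2.54-fold lower in Stra8KO in Veh (log2 -1.35, SE 0.0842, adjusted p 1.42e-17), the larger of the 2 called differences of this sign. In NRRA it was at 0.25 (SE 0.0837, adjusted p 0.00886), and that call was lost under 6 alternatives. These were total counts (0.04), no filter (0.20), the DESeq2 Wald test (0.23), the 4 NRRA libraries only (0.18), and leaving out Stra8KO NRRA replicate 1 (0.18) or Spo11KO NRRA replicate 1 (0.12). Smad7 was at -0.10 in Veh (95% interval -0.22 to 0.01, adjusted p 0.123), where total counts (-0.22) and leaving out Stra8KO Veh replicate 1 (-0.21) gave a call. It was higher in Stra8KO by 0.63 in NRRA (SE 0.0664, adjusted p 7.04e-11).

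All 3 Id genes were higher in Stra8KO in both media, with no overlap of libraries. Id1 differed by 0.83 in Veh (SE 0.0905, adjusted p 1.39e-10) and 0.82 in NRRA (SE 0.0852, adjusted p 4.13e-11). Id2 differed by 0.86 (SE 0.178, adjusted p 5.95e-05) and 0.93 (SE 0.143, adjusted p 3.73e-07). Id3 differed by 0.63 (SE 0.0632, adjusted p 1.31e-11) and 1.24 (SE 0.0622, adjusted p 9.23e-21). Across the 8 libraries, in which each marker sum and each gene come from the same RNA, log2 CPM correlated with the summed fibroblast markers at r = 0.96 for Id2, 0.94 for Bmpr1b, 0.89 for Id1, 0.88 for Bmp4 and 0.77 for Id3. The same value was -0.22 for Grem1, -0.10 for Bmp2, -0.31 for Smad7, -0.54 for Smad6 and -0.92 for Bmpr1a. The fibroblast sum adds CPM, so it mostly follows its most abundant markers, Col1a1, Col1a2, Col3a1 and Fn1. Of these, the collagens rose and Fn1 fell under NRRA in both genotypes, so the sum is not a plain measure of feeder content. With the summed germ cell markers, r was -0.95 for Id1, -0.94 for Id3 and -0.70 for Id2. It ran from -0.61 to -0.31 for Bmp2, Grem1, Bmpr1b, Smad7 and Bmp4, and was 0.51 for Smad6 and 0.55 for Bmpr1a.

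**Figure D4:**
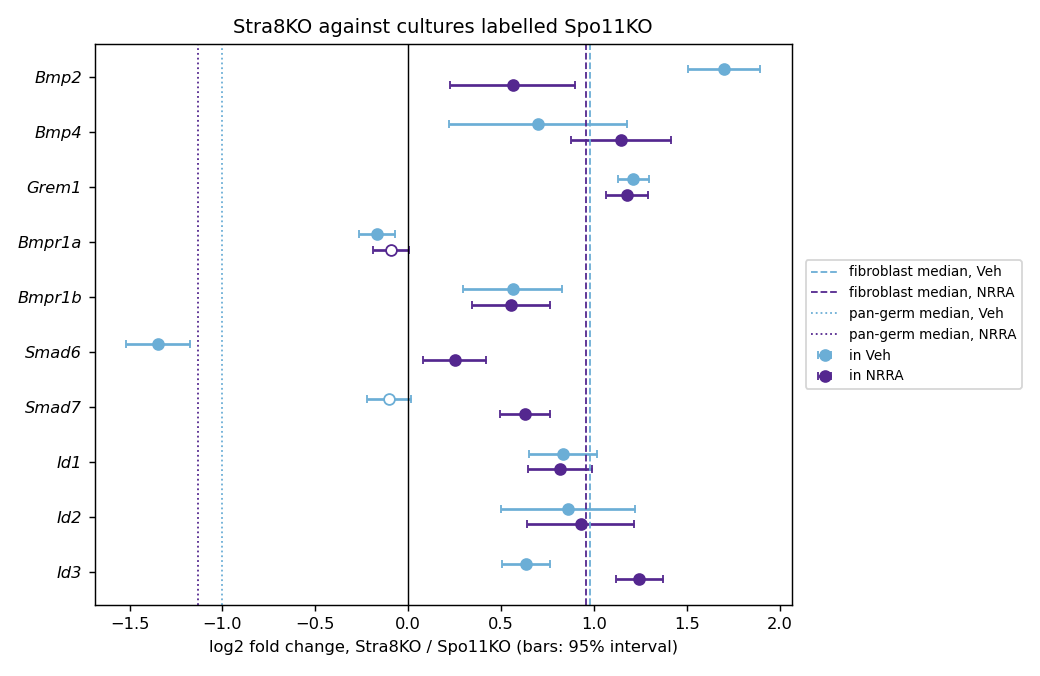
Log2 fold change of Stra8KO over cultures labelled Spo11KO for each BMP gene in Veh (light blue) and NRRA (purple). Points are fitted values, bars are 95% intervals, filled points were called, and vertical lines mark the medians of the fibroblast markers (dashed, 0.98 and 0.96) and germ cell markers (dotted, -1.0 and -1.13). Smad6 moves from -1.35 in Veh to 0.25 in NRRA.

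Per kb, Grem1 had the highest level of the 10 genes in Stra8KO Veh (101 CPM per kb) and Spo11KO Veh (43.5), followed by Id3 (30.4 and 19.6). Smad7 and Bmpr1a came next to each other in both Veh groups and overlapped there. After NRRA, Id3 led in Stra8KO (37.2 CPM per kb) and Grem1 was at 13.1, below Id3, Id1 and Bmpr1a. In Spo11KO NRRA, Bmpr1a (16.3) and Id3 (15.7) led and overlapped, and Grem1 (5.82) overlapped with Smad6 (6.05). Bmp4 was the lowest of the 10 in both Veh groups (1.28 and 0.79 CPM per kb) and Bmp2 in both NRRA groups (1.4 and 0.957).

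Of 48 other genes of the pathway, listed by role, 42 were tested, and Bmp3, Bmp10, Bmp15, Gdf2, Gdf5 and Sostdc1 had too few counts. NRRA was called for 31 in Stra8KO (16 higher, 15 lower), or 73.8%, beside 41.5% of all tested genes. It was called for 34 in the Spo11KO-labelled cultures (14 higher, 20 lower), or 81.0%, beside 50.3%. Among ligands, Gdf6 rose in both (log2 1.96 and 1.88) and Bmp6 rose more in Stra8KO (1.94 against 0.32, interaction 1.62, SE 0.112). Bmp7 changed by -0.34 in Stra8KO and had 0.09 in the Spo11KO-labelled cultures, which was not called (interaction -0.43, called).

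Of 11 other secreted antagonists, 9 were called under NRRA in each genotype, with 5 rises and 4 falls in Stra8KO, and 3 rises and 6 falls in the Spo11KO-labelled cultures, beside the same 41.5% and 50.3% of all tested genes. Chrdl1, a chordin-like BMP-binding protein, had the largest rise (log2 2.83, SE 0.303, and 3.78, SE 0.215). It was at 0.358 and 0.806 CPM in Stra8KO Veh and 4.15 and 4.02 CPM in Stra8KO NRRA, and at 0.716 and 0.74 CPM in Spo11KO Veh and 9.38 and 10.7 CPM in Spo11KO NRRA. Smoc2 moved in opposite directions (1.23 and -0.94, interaction 2.17, SE 0.0858, adjusted p 6.28e-23), as did Fst, which encodes follistatin (0.42 and -0.44, interaction 0.86). Called interactions were also found for Smoc1 (1.07), Chrd (1.09) and Bmper (-0.40).

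The type II receptors Bmpr2, Acvr2a and Acvr2b all rose in both genotypes, by 0.15 to 0.92, and Acvr2a rose more in Stra8KO (interaction 0.39). Co-receptors Rgma and Rgmb fell in both, with interactions of -0.54 and -0.24. Among the signalling SMADs, Smad1 had an interaction of -0.40 and Smad5 of 0.20. Of the intracellular inhibitors, Ski (0.54), Skil (0.48) and Smurf1 (-0.30) had called interactions.

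Of the 5 other targets tested, Id4, Msx2 and Atoh8 had called interactions. Id4 was at 11.7 and 10.2 CPM in Stra8KO Veh and 27.5 and 27.6 CPM in Stra8KO NRRA, and at 39.1 and 38.7 CPM in Spo11KO Veh and 13.5 and 16.5 CPM in Spo11KO NRRA. Like Smad6, it was highest in Spo11KO Veh and lowest in Stra8KO Veh. Id4 rose in Stra8KO (log2 1.33, SE 0.0974) and fell in the Spo11KO-labelled cultures (log2 -1.37, SE 0.0813), with an interaction of 2.70 (SE 0.127, adjusted p 1.49e-20). Msx2, a homeobox gene, fell from 22.3 and 21.2 to 3.86 and 4.64 CPM in the Spo11KO-labelled cultures (log2 -2.35), and had 7.96 and 5.69 CPM in Stra8KO Veh and 5.45 and 7.02 CPM in Stra8KO NRRA (interaction 2.21, SE 0.209). Atoh8 rose in both, by 2.03 in Stra8KO and 0.78 in the Spo11KO-labelled cultures (interaction 1.25, SE 0.179). Msx1 fell in both, by 1.53 and 2.57 on the log2 scale, and its interaction of 1.04 was not called (adjusted p 0.117). Hey1 rose in the Spo11KO-labelled cultures (0.78) and had 0.06 in Stra8KO, which was not called, nor was its interaction (-0.71, adjusted p 0.109). In all, 19 of the 42 genes had a called interaction, 12 positive and 7 negative, beside 24.7% of all tested genes.

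**Figure D5:**
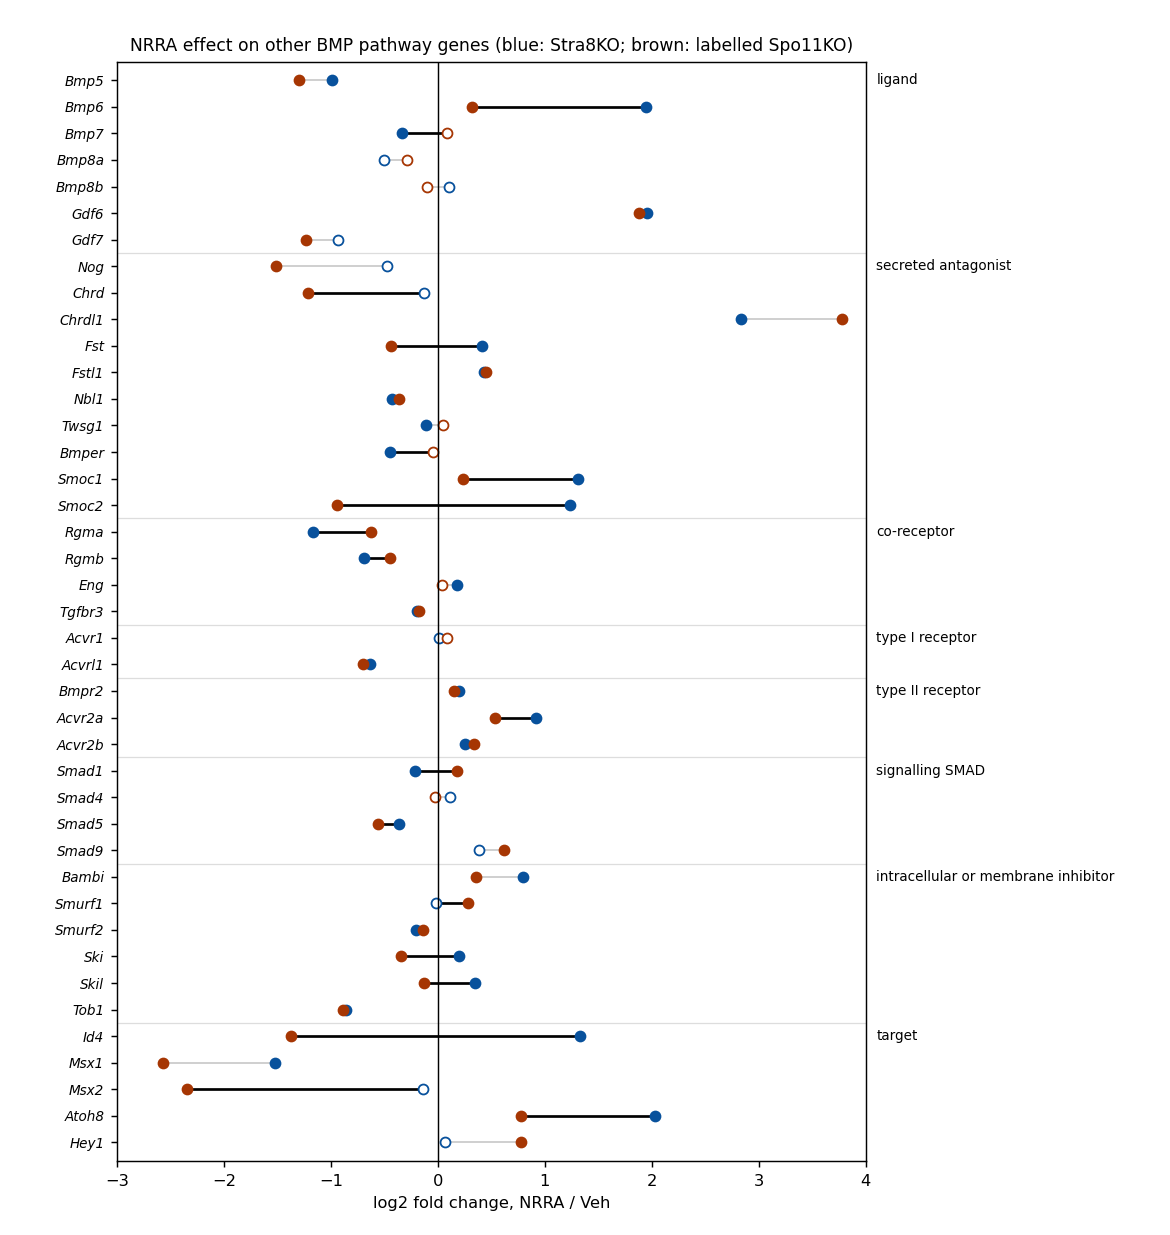
NRRA effect on other tested BMP pathway genes, grouped by role, as the log2 fold change of NRRA over Veh. Blue points are Stra8KO and brown points cultures labelled Spo11KO, filled points were called, and a black line joins the points of a gene with a called interaction. Id4 (1.33 and -1.37) and Smoc2 (1.23 and -0.94) lie on opposite sides of 0.

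Between genotypes, 32 of the 42 genes were called in Veh (19 higher in Stra8KO, 13 lower), beside 62.1% of all tested genes, and 36 in NRRA (29 higher, 7 lower), beside 64.3%. All 5 other targets, Id4, Msx1, Msx2, Atoh8 and Hey1, were called lower in Stra8KO in Veh, from -1.19 to -1.83, whereas Id1, Id2 and Id3 were higher. All 4 co-receptors were higher in Stra8KO in both media.

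The genes whose log2 CPM was most like that of each BMP gene were sought over the 8 libraries among 12869 genes whose average log2 CPM reached 1. Nearest to Grem1 were Mmp3, Etv1 and Itga2 (r = 0.998 to 0.999), and to Bmp2 were Bin1, Slc7a11 and Ccdc85b (0.995 to 0.996). Nearest to Bmp4 were Pld2, Galnt17 and Zc2hc1a (0.994 to 0.997), to Bmpr1b Mill2, Cd38 and Sh3bp5 (0.994) and to Bmpr1a Riok2, Cwc27 and Hspa8 (0.979 to 0.984). Smad6 had Mid2, Gtf3a and Zbtb16 (0.975 to 0.979), the last encoding the spermatogonial factor PLZF, and Smad7 had Hsd17b12, Spred2 and Abr (0.995). For Id1 they were Fkbp10, Pea15a and Plscr3 (0.998 to 0.999), for Id2 Pabpc4l, Il1rl2 and Atf7ip (0.988 to 0.991) and for Id3 Galnt10, Kank2 and Srm (0.994 to 0.996). With 4 groups of 2 libraries, such values mostly describe the order of the group levels. Among the 10 genes themselves, r was 0.96 for Bmp2 with Grem1, 0.98 for Bmp4 with Bmpr1b, 0.92 for Grem1 with Smad7 and 0.93 for Id1 with Id3.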

How the data were processed

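The deposited values are raw counts by Ensembl gene, 1 column for each library, which the authors neither normalized nor pooled. The submitters' processing notes name STAR 2.6.1c, featureCounts 1.6.4, bcl2fastq and the build mm10. The strand setting and the handling of multi-mapping reads are not given in the sources used here. Coordinates and exon lengths came by identifier from GENCODE M21 (GRCm38), which held 99.67% of the identifiers. Promoter windows came from RefSeq (GRCm38.p6), in which Bmp2, Id1 and Smad7 were not found.

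The analysis used edgeR 4.0.16 (R 4.3.3). The filter was filterByExpr, which kept 20588 genes with 99.88% of counts. After TMM scaling, all 8 libraries entered 1 model of group means, with the robust form of quasi-likelihood. The 5 two-sided contrasts were adjusted by Benjamini-Hochberg over the tested genes. The SE was computed as the size of the log2 fold change over the root of F. The common biological coefficient of variation was 3.39%. Libraries of the same group differed by more than sampling noise (median chi-square of a gene 0.741 to 0.974, against 0.455) and were counted separately. This check cannot tell separate cultures from separate preparations of the same culture. If both libraries of a group came from the same culture, the tests measured spread within it. Genotype cannot be told apart from the cultures in which it was measured. The script was tested on simulated counts.

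Alternatives were DESeq2 size factors, total counts, no filter, a minimum average of 10 counts, the Wald test of DESeq2 1.42.0 (the study's tool), fits restricted to the 4 libraries compared, the replicate number as a block and leaving out each library. Named genes were the 10 members, pathway genes with a called interaction, the 5 largest called NRRA changes of the pathway list in each genotype (average log2 CPM of at least 1), and the 3 genes most like each member. Bmpr2, Acvr2b and Hey1 were named after their values were seen, to complete counts of few genes. A gene of the pathway list that met these rules stands in the counts but is not reported here. The members and all lists were chosen with earlier results of these data known. Of the 7 macrophage, 6 Sertoli, 5 Leydig and 4 endothelial markers, 6, 3, 3 and 4 were tested.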

Additional observations from a re-analysis of the deposited data

Results flagged for a closer look

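For 4 of the BMP genes the interaction test found unlike NRRA effects in the genotypes. Smad6 (interaction 1.60, log2) rose in Stra8KO and fell in the other genotype. Id3 (0.61) did the same on a smaller scale. Smad7 (0.73) fell in both, and less in Stra8KO. Bmp2 (-1.14) fell in both, and more in Stra8KO.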

How the results depend on the processing

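Of the changes computed for single BMP genes under the alternatives, 699 kept direction and side of the threshold, 20 lost a call, 9 gained a call and 12 changed sign. The sign changes all concerned interactions that were not called. With total counts these were Bmpr1a (-0.020) and Id2 (-0.025). Leaving out 1 library at a time, the interaction ran from -0.053 to 0.12 for Bmpr1a, from -0.14 to 0.10 for Bmpr1b, from -0.15 to 0.010 for Grem1, from -0.094 to 0.026 for Id1 and from -0.23 to 0.26 for Id2. The cause was not tested. The number of BMP genes called was 8 in every setting for NRRA in Stra8KO, 7 to 9 for NRRA in the Spo11KO-labelled cultures, 8 to 10 between genotypes in each medium and 4 for the interaction. Under total counts the higher share of all calls went from 49.2% to 61.8% for NRRA in the Spo11KO-labelled cultures, from 54.7% to 39.5% between genotypes in NRRA and from 59.2% to 38.7% for the interaction. This split also moved under TMM when Spo11KO Veh replicate 2, Spo11KO NRRA replicate 1 or Spo11KO NRRA replicate 2 was left out. In those fits the median of all tested genes shifted by 0.056 to 0.068 for NRRA in the Spo11KO-labelled cultures. For the interaction the median shifted by -0.083 to -0.064. With total counts these shifts were 0.092 and -0.093. Differences between replicates correlated at -0.071 to 0.14 between groups over 14949 genes, highest for Veh with NRRA of the Spo11KO-labelled cultures. As such differences also hold counting noise, these values cannot show whether the replicate numbers paired the samples. With the replicate number as a block, 8 BMP genes were called for NRRA in Stra8KO, 9 for NRRA in the Spo11KO-labelled cultures, 9 between genotypes in Veh and in NRRA, and 4 for the interaction. Depth limits Id2 and Bmp4 most, whose lowest libraries held 68 and 41 counts.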
